A study of Homo sapiens with 2 samples.

Results

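Of the 507 capture antibodies on the array, 3 read members of the vascular endothelial growth factor family that differ in the vessels they act on: VEGF-C and VEGF-D, known as lymphangiogenic factors, and VEGF, the founding angiogenic factor. They were chosen by antibody name, and all 3 were present on both arrays and in the sheet of single spots. By the antibody names, their genes are VEGFC, VEGFD and VEGFA in the RefSeq gene table. VEGF signals mainly through VEGF receptor 2 on blood endothelium and drives the sprouting and leakiness of blood vessels. VEGF-C and VEGF-D are made as precursors, are cut by proteases outside the cell, and act on VEGF receptor 3, which drives the growth of lymphatic vessels. Many carcinoma cells release one or more of these factors, and VEGF-C is known in pancreatic cancer for its association with lymphatic spread.

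By their labels, the samples were conditioned media of Su.86.86, a human pancreatic cancer cell line grown with 10% fetal bovine serum. They were taken 48 h after transfection with siJAG1, an siRNA against the Notch ligand Jagged 1, or with siNC, the control siRNA. Each group had 1 array, so the groups could not be tested against each other, and each comparison describes these 2 arrays. The array has 0 antibodies to Jagged 1, so the knockdown itself was not measured. The labels of both arrays are in doubt. A sheet of single spots deposited with each sample has 4 value columns, with the headings Panc1_mir-124, Panc1_NC, BX3mir-124 and BX3_NC, and no heading matches a sample title. The 507 signals labelled siJAG1 equal the means of the spot pairs headed BX3_NC, and the 507 signals labelled siNC equal those headed Panc1_NC (tolerance 1e-06). Both of these headings end in NC, and they differ in the prefix, BX3 or Panc1. If the headings were right, the arrays would differ in that prefix and not by an siRNA against Jagged 1. Which of the labels and headings is right was not tested. The arrays are therefore called siJAG1-labelled and siNC-labelled. Every direction, and any reading as a contrast of siJAG1 with siNC, rests on those labels.

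Each reading is given as a signal, whose unit is not stated, and as the deposited relative expression, which sets the lowest spot of the array (33644 on the siJAG1-labelled and 33619 on the siNC-labelled array) to 0 and the mean of 12 positive control spots to 1 (58664 on the siJAG1-labelled and 57374 on the siNC-labelled array). Blank spots define the background: the 32 of them averaged 34178 on the siJAG1-labelled array, running from 33897 to 34492, and 34188 on the siNC-labelled array, running from 33878 to 34396. Most antibodies read little above this, with a median signal of 34392 on the siJAG1-labelled and 34827 on the siNC-labelled array. Readings of different antibodies cannot be compared as amounts of protein, because antibodies differ in affinity. Orders and distances between antibodies describe readings only.

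VEGF-C was near background on the siJAG1-labelled array and bright on the siNC-labelled array. Its signal was 34370 on the siJAG1-labelled array, from spots of 34352 and 34387, against 47585 on the siNC-labelled array, from spots of 43654 and 51516. Both siJAG1-labelled spots lay within the range of the blank spots, and both siNC-labelled spots lay far above it. The relative expression was 0.0290 on the siJAG1-labelled and 0.588 on the siNC-labelled array. The log2 ratio of siJAG1-labelled over siNC-labelled was -4.34, but its numerator, the siJAG1-labelled reading, lies near background. With readings below 0.2 raised to 0.2, the siJAG1-labelled reading of VEGF-C was at least 2.94-fold lower than the siNC-labelled one.

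VEGF-D gave almost the same pair of readings. Its signal was 34400 on the siJAG1-labelled array, from spots of 34499 and 34300, against 47034 on the siNC-labelled array, from spots of 40640 and 53427. On the siJAG1-labelled array 1 spot lay within the blank range and the other 7 units above it, while on the siNC-labelled array both were far above. The relative expression was 0.0302 on the siJAG1-labelled and 0.565 on the siNC-labelled array, with a log2 ratio of -4.23. With the floor of 0.2, the siJAG1-labelled reading was at least 2.82-fold lower by the pair means. With the lower siNC-labelled spot alone this bound was 1.48-fold for VEGF-D, under the 1.5-fold used for calls below, and 2.11-fold for VEGF-C.

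VEGF was dim on both arrays. Its signal was 34601 on the siJAG1-labelled array, from spots of 34893 and 34308, against 34989 on the siNC-labelled array, from spots of 35117 and 34861. The siJAG1-labelled spots lay on either side of the highest blank, and the lower siNC-labelled spot was below the higher siJAG1-labelled one, so the pairs overlapped. The relative expression was 0.0382 on the siJAG1-labelled and 0.0577 on the siNC-labelled array, a log2 ratio of -0.59. The median log2 ratio over all 507 antibodies was -0.78, so VEGF was lower on the siJAG1-labelled array by slightly less than the middle antibody. Divided by the array medians its log2 ratio was 0.17, and after quantile normalization 0.087, so no direction is given for VEGF.

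**Figure D1:**
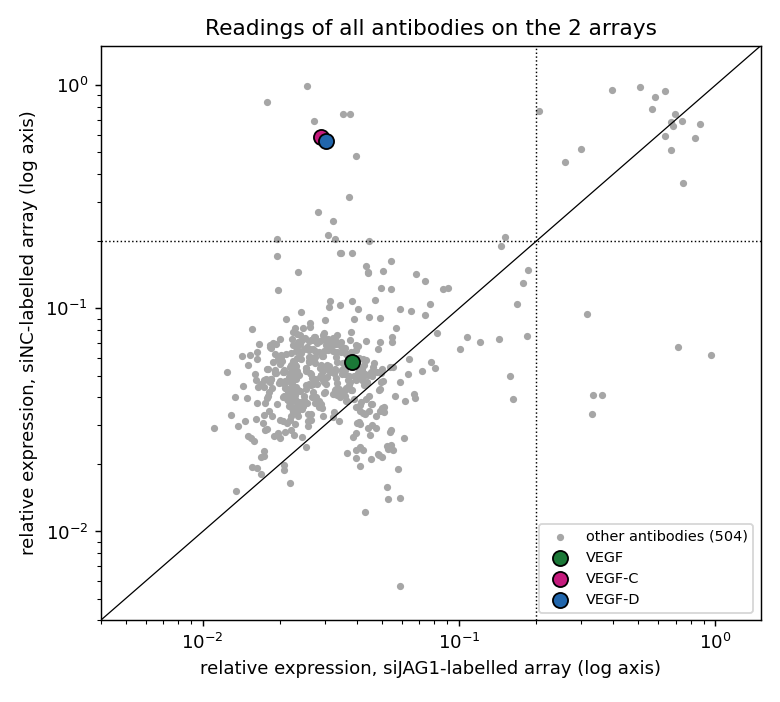
Relative expression of each antibody on the siJAG1-labelled array (horizontal, log axis) and the siNC-labelled array (vertical, log axis), 1 point per antibody, with the line of equality and dotted lines at 0.2. VEGF-C and VEGF-D nearly coincide, at 0.0290 and 0.0302 on the siJAG1-labelled against 0.588 and 0.565 on the siNC-labelled array, while VEGF lies in the cloud of dim antibodies.

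To be called lower, an antibody had to reach 0.2 in relative expression on 1 array or both, and its ratio had to pass 1.5-fold with readings below 0.2 set to 0.2. By this rule 15 of 39 antibodies (38.5%) were called lower on the siJAG1-labelled array, and VEGF-C and VEGF-D were 2 of these 15. VEGF did not reach 0.2. Without the limit of 0.2 and without the floor, 296 of 507 antibodies (58.4%) were lower by at least 1.5-fold, and all 3 VEGF antibodies were among them, VEGF at 1.51-fold. Passing a rule that most antibodies pass is no result about VEGF. The log2 ratios of VEGF-C and VEGF-D were the 5th and 7th lowest of the 507. By a stricter limit, a signal of 1.5 times the blank mean (a relative expression of 0.704 on the siJAG1-labelled and 0.744 on the siNC-labelled array), neither was detected on either array.

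In units of signal, the spots behind the siNC-labelled readings of VEGF-C and VEGF-D disagreed more than those of any other antibody on that array. The 2 spots of VEGF-D differed by 12787 units of signal, the largest difference among the 507 pairs, and those of VEGF-C by 7862, the next largest. The median pair differed by 163 units. In relative expression the siNC-labelled spots were 0.296 and 0.834 for VEGF-D and 0.422 and 0.753 for VEGF-C. The pair difference was thus 95.3% of the mean for VEGF-D and 56.3% for VEGF-C, against a median of 7.36% over the 33 antibodies at or above 0.2 on that array. By this percentage VEGF-D was the highest of the 33, but VEGF-C came after TRAIL at 72.8% and GREMLIN at 61.1%. On the siJAG1-labelled array, where both were near background, the pairs differed by 199 units for VEGF-D and 35 for VEGF-C, against a median of 118.

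The spots of VEGF-C and VEGF-D still did not overlap between the arrays, but pairs without overlap were not counted over all 507 antibodies. The dim VEGF-B, VEGF R2 and VEGF R3 did not overlap either, while VEGF did. For VEGF-B the spots were 34124 and 34150 on the siJAG1-labelled against 36364 and 36588 on the siNC-labelled array. Non-overlap alone therefore does not set VEGF-C and VEGF-D apart. Setting the higher siJAG1-labelled spot against the lower siNC-labelled one gave a log2 ratio of -3.83 for VEGF-C and -3.11 for VEGF-D without a floor. With the floor of 0.2 the same choice gave -1.08 for VEGF-C and -0.56 for VEGF-D, which ends the call of VEGF-D. The opposite choice of spots, without a floor, gave -4.73 for VEGF-C and -4.99 for VEGF-D. For VEGF the extremes without a floor were -0.067 and -1.25. Duplicate spots share 1 slide and 1 sample of medium, so this spread measures printing and reading and not variation between cultures.

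**Figure D2:**
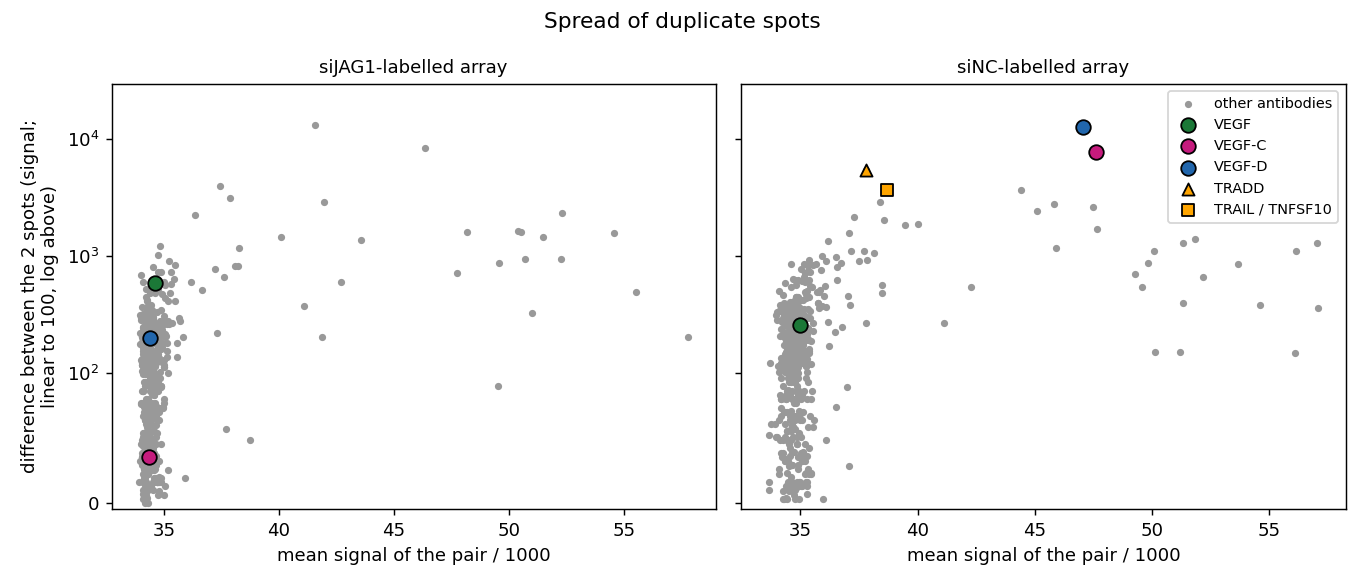
Difference between the 2 spots of each antibody (vertical, linear to 100 and log above) against the mean signal of the pair (horizontal), with the siJAG1-labelled array on the left and the siNC-labelled array on the right, 1 point per antibody. On the siNC-labelled array VEGF-D and VEGF-C have the largest differences, 12787 and 7862, followed by TRADD at 5510.

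The bright spots of VEGF-C and VEGF-D lay together on the slide. The array was printed in 36 rows and 30 columns, with the 2 spots of an antibody in neighbouring rows. VEGF-C stood in column 21 and VEGF-D beside it in column 22, both in rows 35 and 36, the last row of the slide. On the siNC-labelled array the row 36 spots were the brighter for each, 51516 for VEGF-C and 53427 for VEGF-D. The row 35 spots read 43654 and 40640.

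Directly above them in row 34, the siNC-labelled array read 40569 for TRADD, an adaptor of tumour necrosis factor receptor signalling, and 40553 for TRAIL, a ligand that induces apoptosis. The other spots of these antibodies, in row 33, read 35059 for TRADD and 36854 for TRAIL. The row 34 spots of both were thus close to the 40640 of VEGF-D in row 35, while their row 33 partners were 5510 and 3699 lower. These differences ranked 3rd and 5th of 507, so 4 of the 5 most discordant pairs of the siNC-labelled array lay in this block of 2 columns. The 4th was thrombopoietin, in rows 31 and 32 of column 25. Farther right, TRAIL R1, a death receptor for TRAIL, read 38304 in row 34 and VEGI, a ligand of the tumour necrosis factor family, 34876 and 35136 in rows 35 and 36.

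To the left of VEGF-C, the siNC-labelled readings were lower with each column as far as VEGF R2. VEGF-B, a ligand of VEGF receptor 1, read 36364 and 36588 in column 20. VEGF R3, the receptor of VEGF-C and VEGF-D, read 35232 and 35424 in column 19, and VEGF R2, the main receptor of VEGF, read 34640 and 34611 in column 18. VEGF itself, in column 17, was again a little higher, at 35117 and 34861. On the siJAG1-labelled array the same 4 antibodies read from 34124 to 34893 in all 8 spots. These are 4 different antibodies, so the order is a description of the print area.

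The 8 spots around the VEGF-C and VEGF-D block had a median of 34414 on the siJAG1-labelled array, ranging from 34124 to 34742, against 36476 on the siNC-labelled array, ranging from 34876 to 40569. Around VEGF the 7 spots had a median of 34288 on the siJAG1-labelled and 34611 on the siNC-labelled array. Taken above the median of these neighbours, the siJAG1-labelled signal was -44.5 for VEGF-C and -14.5 for VEGF-D, against 11109 for VEGF-C and 10558 for VEGF-D on the siNC-labelled array. These are pair means against a median, and the row 35 spot of VEGF-D alone, at 40640 on the siNC-labelled array, was close to the 40569 of TRADD and the 40553 of TRAIL. Of the 33 antibodies at or above 0.2 on the siNC-labelled array, 15 had another such antibody next to them. The highest spot of a dim antibody beside a bright one was 0.293, that of TRADD beside VEGF-C and VEGF-D, against a median of 0.113 over the 33. Spots named as negative controls, which were printed around the positive controls, read from 36710 to 57830 on the siJAG1-labelled and from 35068 to 56592 on the siNC-labelled array, all above the blanks. Their median was 44763 on the siJAG1-labelled and 42729 on the siNC-labelled array. The siNC-labelled spots of VEGF-C and VEGF-D, from 40640 to 53427, lay within the range of these control spots. The part of stray signal from neighbouring spots in the VEGF-C and VEGF-D readings was not tested.

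**Figure D3:**
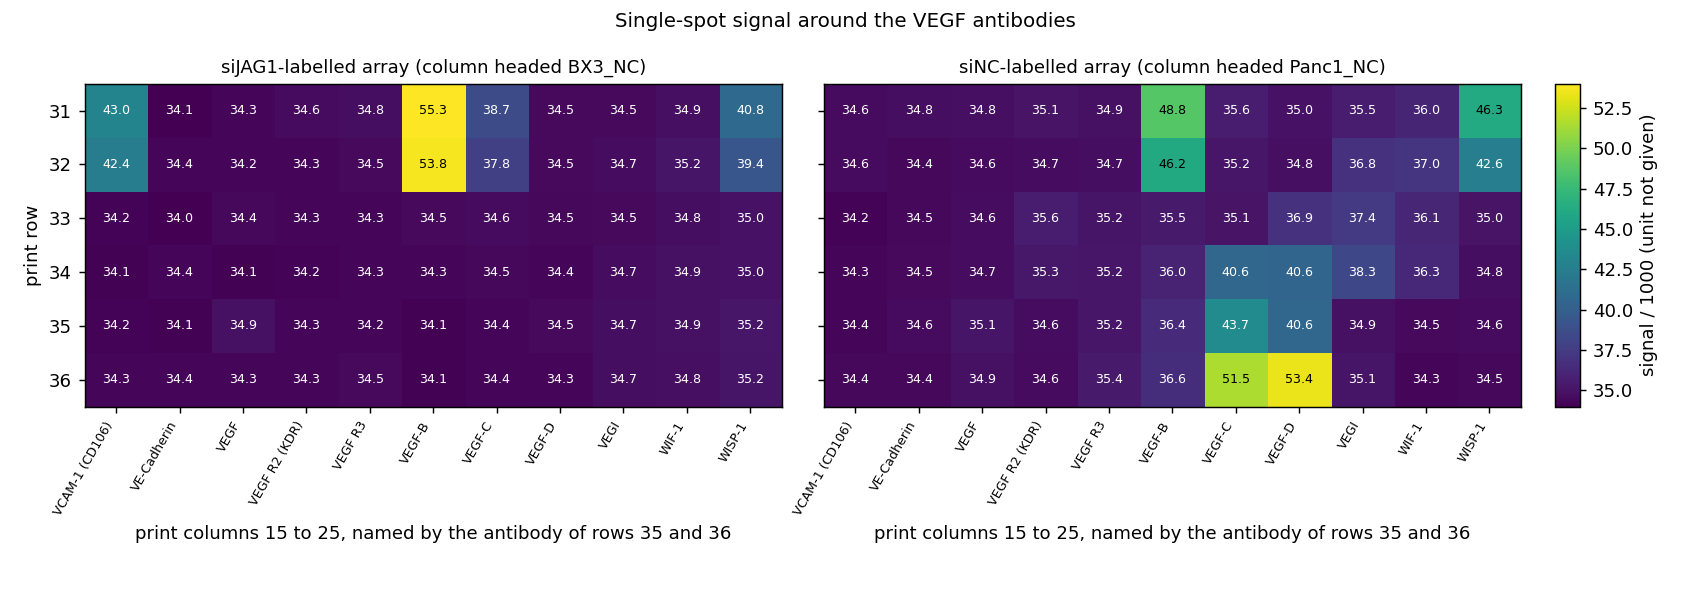
Signal of single spots in print rows 31 to 36 and columns 15 to 25, divided by 1000, on the siJAG1-labelled array (left) and the siNC-labelled array (right); columns are named by the antibody in rows 35 and 36, and rows 31 to 34 hold other antibodies. On the siNC-labelled array the spots of rows 34 to 36 in the VEGF-C and VEGF-D columns read from 40553 to 53427, while the same spots of the siJAG1-labelled array read from 34300 to 34499.

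The sheet of single spots allowed the 3 antibodies to be read under all 4 headings, of which BX3mir-124 and Panc1_mir-124 have no counterpart among the labelled arrays. The headings are the submitters' and are assigned to no group, and Panc1 is also the name of another pancreatic cancer cell line. VEGF-C read 30780 and 30851 under BX3mir-124, where the blanks ran from 30851 to 31808, and 34352 and 34387 under BX3_NC. It read 34624 and 34841 under Panc1_mir-124, just above the blanks there, which ran from 34006 to 34588, and 43654 and 51516 under Panc1_NC. VEGF-C was thus bright under 1 heading of the 4 and within 253 units of the highest blank, or below it, under the others.

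VEGF-D read 30828 and 31286 under BX3mir-124, 34499 and 34300 under BX3_NC, 34886 and 34982 under Panc1_mir-124, and 40640 and 53427 under Panc1_NC. It followed VEGF-C, with bright spots under Panc1_NC only and small readings above the blanks under Panc1_mir-124. TRADD and TRAIL read from 34867 to 34940 in their 4 spots under Panc1_mir-124, so the neighbours of VEGF-C and VEGF-D stood at the same level as VEGF-D there.

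VEGF read 30921 and 31028 under BX3mir-124, 34893 and 34308 under BX3_NC, 35276 and 35337 under Panc1_mir-124, and 35117 and 34861 under Panc1_NC. Both of its spots were above every blank under both Panc1 headings, 1 of 2 under BX3_NC and 0 under BX3mir-124. Being above the blanks was common under Panc1_NC, where both spots of 399 antibodies (78.7%) were, and less so under Panc1_mir-124 with 166 (32.7%), BX3_NC with 179 (35.3%) and BX3mir-124 with 18 (3.55%). Under Panc1_mir-124 VEGF was 688 units above the highest blank by its lower spot. The 4 columns differ in overall level, with a median of the blanks of 31259 under BX3mir-124, 34168 under BX3_NC, 34298 under Panc1_mir-124 and 34216 under Panc1_NC, so values are set against the blanks of their own column.

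**Figure D4:**
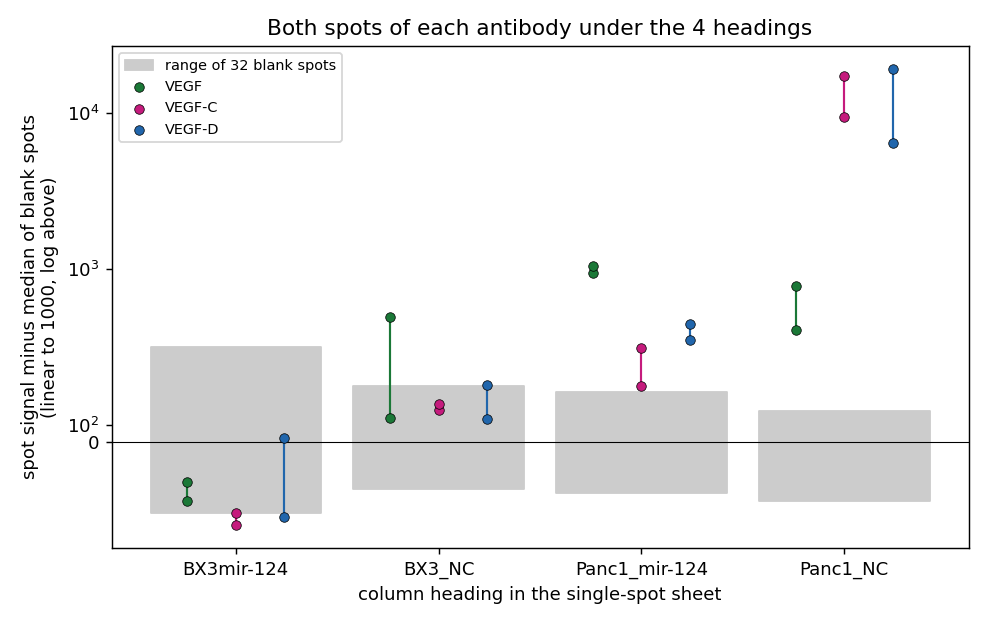
Both spots of VEGF, VEGF-C and VEGF-D (points joined by a line) under the 4 headings of the single-spot sheet, as signal minus the median of the 32 blank spots of the same column (vertical, linear to 1000 and log above); the grey band is the range of the blanks. VEGF-C and VEGF-D stand far above the band under Panc1_NC only, and VEGF stands above it under both Panc1 headings.

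The rest of the VEGF system gave no further bright reading. Of the 8 antibodies to VEGF ligands and receptors, 2 reached 0.2 on at least 1 array, beside 39 of all 507. These 2 were VEGF-C and VEGF-D, printed side by side. Both were called lower on the siJAG1-labelled array, as were 15 of the 39 (38.5%). VEGF-B stood at 0.0197 on the siJAG1-labelled and 0.120 on the siNC-labelled array, next to VEGF-C as described. PlGF, a ligand of VEGF receptor 1 printed elsewhere, stood at 0.0173 on the siJAG1-labelled and 0.0333 on the siNC-labelled array. Of the receptors, VEGF R2 stood at 0.0268 on the siJAG1-labelled against 0.0424 on the siNC-labelled array, VEGF R3 at 0.0301 on the siJAG1-labelled against 0.0719 on the siNC-labelled array, and Neuropilin-2, a co-receptor for VEGF-C and VEGF-D, at 0.0253 on the siJAG1-labelled against 0.0240 on the siNC-labelled array. The median log2 ratio of the 8 was -1.10, beside -0.78 for all 507, and 7 of the 8 were lower by at least 1.5-fold without the limit of 0.2, a rule that 58.4% of all antibodies met.

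Related vessel growth factors read near background on both arrays, as did most antibodies. Of all 507, 39 reached 0.2 on at least 1 array, so a count of 0 in a short list is no result about that list. Of the 7 PDGF family antibodies, which read growth factors of pericytes and stromal cells and their receptors, 0 reached 0.2, and PDGF-AA, the highest by its mean, stood at 0.0673 on the siJAG1-labelled and 0.0397 on the siNC-labelled array. Angiopoietins and Tie receptors stabilise and remodel vessels. Of the 8 antibodies listed for angiopoietins, angiopoietin-like proteins and Tie receptors, 0 reached 0.2. Angiopoietin-4, the highest by its mean, stood at 0.0333 on the siJAG1-labelled and 0.0415 on the siNC-labelled array. The median log2 ratio was -0.10 for the PDGF family and 0.028 for the list with the angiopoietins. In that list Angiopoietin-like 1, Angiopoietin-like 2 and Angiopoietin-like Factor, which are named apart from the angiopoietins, stood at 0.43, 0.13 and 1.12. Angiopoietin-1, Angiopoietin-2 and Angiopoietin-4 stood at -0.22, -0.074 and -0.32, Tie-1 at 0.15 and Tie-2 at -0.37.

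Of the 7 antibodies to inhibitors of vessel growth, 2 reached 0.2, both of them on both arrays, beside 39 of all 507 on at least 1 array. Thrombospondin-1, a matrix glycoprotein, stood at 0.694 on the siJAG1-labelled and 0.740 on the siNC-labelled array, and Endostatin, a fragment of collagen XVIII, at 0.674 on the siJAG1-labelled and 0.513 on the siNC-labelled array. Neither was called. Both proteins are also present in serum, so their source in medium with fetal bovine serum was not tested.

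Markers of cells that respond to these factors were dim, as were 468 of all 507 antibodies on both arrays. The 7 endothelial antibodies ranged from 0.0169 to 0.0305 on the siJAG1-labelled and from 0.0182 to 0.0719 on the siNC-labelled array, with E-Selectin the highest on the siJAG1-labelled array and VEGF R3 on the siNC-labelled array. Their summed relative expression was 0.179 on the siJAG1-labelled and 0.280 on the siNC-labelled array. Of 4 lymphatic markers listed, VEGF R3 was the 1 matched by name on the array. The 5 leukocyte antibodies peaked at 0.101, for L-Selectin on the siJAG1-labelled array, and at 0.0729 on the siNC-labelled array. Each of the 6 proteins listed as released by pancreatic cancer cells reached 0.2 on at least 1 array. That list was chosen with earlier results of these data known, so the count is no independent contrast with the other lists. Of the 6, 3 were called lower on the siJAG1-labelled array, 1 higher and 2 neither. Of the 39 antibodies at or above 0.2 on an array, 15 were called lower, 7 higher and 17 neither, so the calls are no result about this list. GRO, a group of neutrophil-attracting chemokines and the highest by its mean, stood at 0.635 on the siJAG1-labelled and 0.947 on the siNC-labelled array.

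Other antibodies shared the pair of readings of VEGF-C. By distance over the relative expression on the 2 arrays, the nearest to VEGF-C was VEGF-D at 0.0232. Next came latent TGF-beta binding protein 1, which stores TGF-beta in the matrix, at 0.0395 on the siJAG1-labelled and 0.483 on the siNC-labelled array. After it came EDA-A2, a ligand of the tumour necrosis factor family, MCP-1, a monocyte chemokine, and IL-1 alpha, an epithelial alarm cytokine. On the siJAG1-labelled array these stood at 0.0272 for EDA-A2, 0.0353 for MCP-1 and 0.0374 for IL-1 alpha, against 0.695 for EDA-A2, 0.744 for MCP-1 and 0.745 for IL-1 alpha on the siNC-labelled array. The same 4 were next after VEGF-C for VEGF-D. The nearest to VEGF were MCP-2, BMP-4, Chordin-Like 1, BMP-7 and Nidogen-1, at distances of up to 0.00330, in the crowd of dim antibodies. With 2 arrays, such likeness has 2 points per antibody and is a description only.

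**Figure D5:**
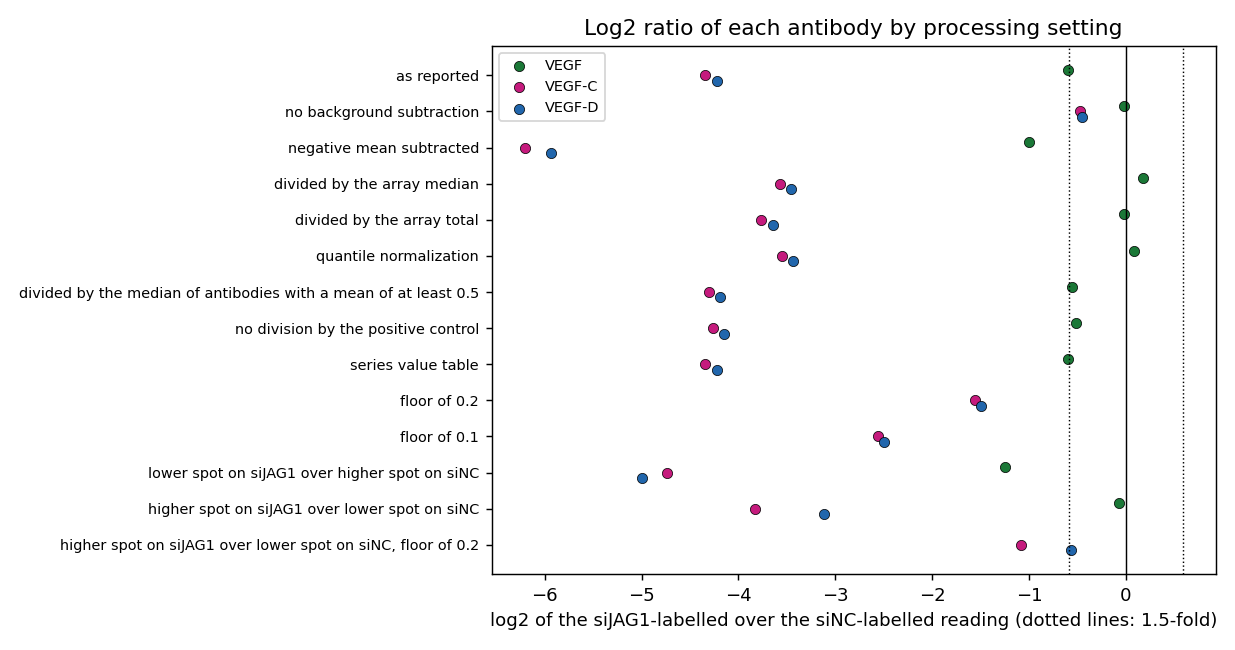
Log2 ratio of the siJAG1-labelled over the siNC-labelled reading (horizontal) under each processing setting (vertical) for VEGF, VEGF-C and VEGF-D; dotted lines mark 1.5-fold. VEGF-C and VEGF-D stay left of the line in all settings but the one without background subtraction, where VEGF-C is at -0.47 and VEGF-D at -0.45, and, for VEGF-D, the higher siJAG1 over the lower siNC spot with the floor, at -0.56, while VEGF lies on both sides of 0.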

How the data were processed

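Per the labels' protocols, 100 µL of conditioned medium was incubated on a 507-antibody array for 2 h and read with Cy3-coupled streptavidin. The authors deposited a signal intensity per antibody, in a unit not stated; no source used here names the scanner, the software or a background step. Their relative expression is a deposited ratio, which the values show to be the signal minus the lowest spot, over the positive control mean minus that spot. The negative mean of the sheets equals the mean of the 32 spots named Blank. Of the single-spot sheet, 2 identical copies were deposited; its 4 value columns were assigned to no sample and are printed by heading. The 3 low rows named Positive 2a, 2b and 2c were left out.

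The log2 ratio is siJAG1-labelled over siNC-labelled relative expression, with no pseudocount; calls used 0.2 and 1.5-fold. With 1 array per group no test was run, and the number of arrays limits the precision. Neighbours are spots at most 1 row and 1 column away. The text names the 3 antibodies, print neighbours, the 5 nearest by reading, and all antibodies of the VEGF and angiopoietin lists. From the other lists it names antibodies at 0.2 or highest on an array or by mean. Thrombopoietin and GREMLIN were named after their values were seen. Members and the 8 lists were chosen with earlier results of these data known. The call rule was run on simulated readings with known folds and no noise, which checks its arithmetic and gives no error rate. Python 3.11.15, pandas 2.3.3 and numpy 2.4.6 were used.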

Additional observations from a re-analysis of the deposited data

How the results depend on the processing

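VEGF-C and VEGF-D kept their direction in all 13 alternatives each. The alternatives are not independent: the deposited series values repeat the main readings, and several scalings shift the log2 ratios of all antibodies by the same constant. VEGF-C stayed past 1.5-fold in 12, with log2 ratios from -6.21 to -1.08, and VEGF-D in 11, from -5.94 to -1.50. One alternative, chosen after seeing the data, set the higher siJAG1-labelled over the lower siNC-labelled spot with the floor of 0.2; it gave -0.56 for VEGF-D and a count of 1 VEGF ligand or receptor called lower. Both antibodies fell short in the ratio of signals without background subtraction, -0.47 for VEGF-C and -0.45 for VEGF-D. In that setting the positive controls read 1.72 times the blank mean on the siJAG1-labelled and 1.68 times on the siNC-labelled array. Whether this range accounts for the smaller ratios was not tested. VEGF changed sign in 2 of 10 alternatives, to 0.17 with division by the array median and 0.087 after quantile normalization, and ran from -1.25 to -0.015 in the others; floors of 0.2 and 0.1 gave no value for it, since both readings lie below them. The cause was not tested. The count of VEGF ligands and receptors called lower was 2 in 9 of 12 alternatives, 1 as above and 0 in no background subtraction and with a signal of at least 1.5 times the blank mean. As reported, 15 of 39 antibodies (38.5%) were called lower over the whole array. The median log2 ratio of all antibodies was -0.78 as reported and -0.017 without background subtraction. It was -0.20 when arrays were divided by their totals and -0.0087 when divided by their medians. With the blank mean subtracted it was -1.49, over the 396 antibodies above that mean on both arrays or below it on both. For those below it on both, the ratio is of negative values and is no fold change. Relative to that median VEGF-C stood at -3.57 as reported and at -0.45 without background subtraction. No paired analysis was possible because each group has 1 array and no result comes from a test.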
